A study of Mus musculus with 8 samples.

Results

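The TGF-beta ligand gene Tgfb1, its receptors Tgfbr1 and Tgfbr2, the SMAD genes Smad2, Smad3, Smad4 and Smad7, the co-repressor genes Ski and Skil, and the TGF-beta-induced gene Tgfbi were followed across cultured myeloid cells with or without deletion of PARP1 or PARP2. The study calls these cells immature myeloid cells (IMCs) by flow cytometry of such cultures, and its name is kept here. The labels say only myeloid cells. These 10 genes were found by symbol among the 24062 genes of the count table, and none of the 10 was lost to the filter for low counts. The 8 total RNA libraries fall into 4 groups of 2. PARP1CKO mice carry floxed Parp1 and PARP2CKO mice floxed Parp2, each with LyzM-Cre, a Cre recombinase driven by the lysozyme M promoter in myeloid cells. PARP1 WT and PARP2 WT mice are littermates of the respective line that carry the floxed gene without Cre. All groups were C57BL/6 mice aged 2 months, and bone marrow cells from each were grown for 3 days in M-CSF (40 ng per mL), the growth factor of macrophages. Because Cre is active only in myeloid cells, and the cells were bulk cultures, cells with an undeleted gene can remain in the CKO groups, and fewer cells of a type cannot be told apart from less RNA per cell.

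TGF-beta is secreted in a latent form and has to be released before it can act. The free ligand binds TGFBR2, which recruits and phosphorylates TGFBR1. TGFBR1 phosphorylates SMAD2 and SMAD3, which enter the nucleus in complexes with SMAD4. The SMAD complexes bind DNA at the SMAD box, CAGAC. SMAD7 and the co-repressors SKI and SKIL (SnoN) restrain the pathway. In cells of the monocyte and macrophage lineage TGF-beta is known as a regulator of differentiation and as a brake on inflammation, and PARP1 is known to ADP-ribosylate SMAD3 and SMAD4.

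Start-site windows of Tgfbi, Tgfbr2 and Tgfbr1 are shown. Tgfbi was chosen as a member known to be induced by TGF-beta. Skil and Smad7 are also known as induced, but no windows were used for them. The receptor genes were chosen because they had the lowest p-values of the members in PARP1CKO and between the WT groups. Each window runs 5′ to 3′ in the direction of the gene, from 250 bases before to 50 after a RefSeq start site on GRCm38.p6, and capitals mark CAGAC or its reverse complement GTCTG.
Tgfbi, chr13:56609336-56609635, plus strand: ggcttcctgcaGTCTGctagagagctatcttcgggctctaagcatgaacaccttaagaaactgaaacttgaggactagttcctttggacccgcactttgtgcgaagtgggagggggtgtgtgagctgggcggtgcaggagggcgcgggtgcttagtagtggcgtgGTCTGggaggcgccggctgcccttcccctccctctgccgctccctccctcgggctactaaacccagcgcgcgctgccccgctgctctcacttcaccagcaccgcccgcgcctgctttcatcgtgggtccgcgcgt
Tgfbr2, chr9:116175314-116175613, minus strand: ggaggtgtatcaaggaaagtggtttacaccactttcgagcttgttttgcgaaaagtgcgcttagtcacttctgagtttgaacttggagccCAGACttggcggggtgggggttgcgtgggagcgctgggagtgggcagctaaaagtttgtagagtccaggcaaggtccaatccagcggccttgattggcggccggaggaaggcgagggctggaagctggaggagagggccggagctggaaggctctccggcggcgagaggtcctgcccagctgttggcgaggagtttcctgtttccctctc
Tgfbr1, chr4:47352972-47353271, plus strand: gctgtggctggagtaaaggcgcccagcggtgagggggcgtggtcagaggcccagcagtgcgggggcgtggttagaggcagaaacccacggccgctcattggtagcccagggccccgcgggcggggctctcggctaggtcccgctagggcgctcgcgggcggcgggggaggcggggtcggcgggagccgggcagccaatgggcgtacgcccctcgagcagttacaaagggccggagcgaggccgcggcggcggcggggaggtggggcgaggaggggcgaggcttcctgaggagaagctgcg

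The Tgfbi window holds the motif at 239 and 85 bases before the start site and the Tgfbr2 window at 160 bases before it, whereas the Tgfbr1 window at the start of the gene holds none. A further Tgfbr1 start site, at chr4:47385966-47386265, has it 203 bases upstream. The motif, searched on both strands, occurs in 49.6% of the 32851 windows in the RefSeq table, so these matches are a description of the letters and not of binding. The palindrome GTCTAGAC, present in 0.213% of all windows, was in none of the 7 windows found for 6 members (the other windows belong to Tgfb1, Smad3 and Ski).

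The deleted genes were measured first. Parp1, which encodes the main DNA-damage-activated poly(ADP-ribose) polymerase, gave 202 and 211 CPM (counts scaled to library size) for PARP1 WT against 63.2 and 59.1 CPM for PARP1CKO (a log2 fold change of -1.75 with standard error 0.178, adjusted p = 0.0134). Parp2 gave 48.2 and 48.3 CPM for PARP2 WT against 25.7 and 25.6 CPM for PARP2CKO (a log2 fold change of -0.91 with standard error 0.0453, adjusted p = 0.000139). Each deleted gene was lower in both libraries of its CKO group, with part of the transcript left. One library stood apart in Parp1: PARP2 WT replicate 2 had 155 CPM against 251 CPM in replicate 1. The libraries held between 37852450 and 61845125 counts, and the members between 230 counts (lowest library of Smad7) and 16950 counts (highest library of Tgfbi). The macrophage markers summed to between 4380 and 5170 CPM, the neutrophil markers to between 2540 and 3270 CPM and the monocyte markers to between 214 and 325 CPM. Of the 5 T and NK cell markers measured, 4 stayed under 1 CPM in every library, and the sum was at most 3.06 CPM.

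The members were first ordered by their level per length, in CPM per kb of exon averaged over the 8 libraries. Tgfbi, a secreted matrix protein, led with 70.1 CPM per kb, the 95th percentile of 12525 genes with a length. Tgfb1 followed with 46.6 CPM per kb and Ski with 21.9 CPM per kb. The receptors were next, Tgfbr1 at 15.8 and Tgfbr2 at 13 CPM per kb. Smad4, the common SMAD, reached 11.6 CPM per kb, above both SMADs that the receptors phosphorylate, Smad2 at 7.92 and Smad3 at 2.24 CPM per kb. Skil lay at 7.47 CPM per kb and the inhibitory Smad7 was lowest at 1.46 CPM per kb, the 26th percentile. Library ranges of neighbours in this order overlapped in 2 places only, between Tgfbr2 (11.3 to 14.4) and Smad4 (10.9 to 12.5) and between Smad2 (7.82 to 8.09) and Skil (7.11 to 7.92 CPM per kb). Exon lengths are those of the union of annotated exons, which overstates the length of genes with many transcripts. Some places in the order depend on the division by length. In mean CPM, Smad2 (69.6) lay above Smad4 (43.0) and Tgfbr2 (107) above Tgfbr1 (103).

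**Figure D1:**
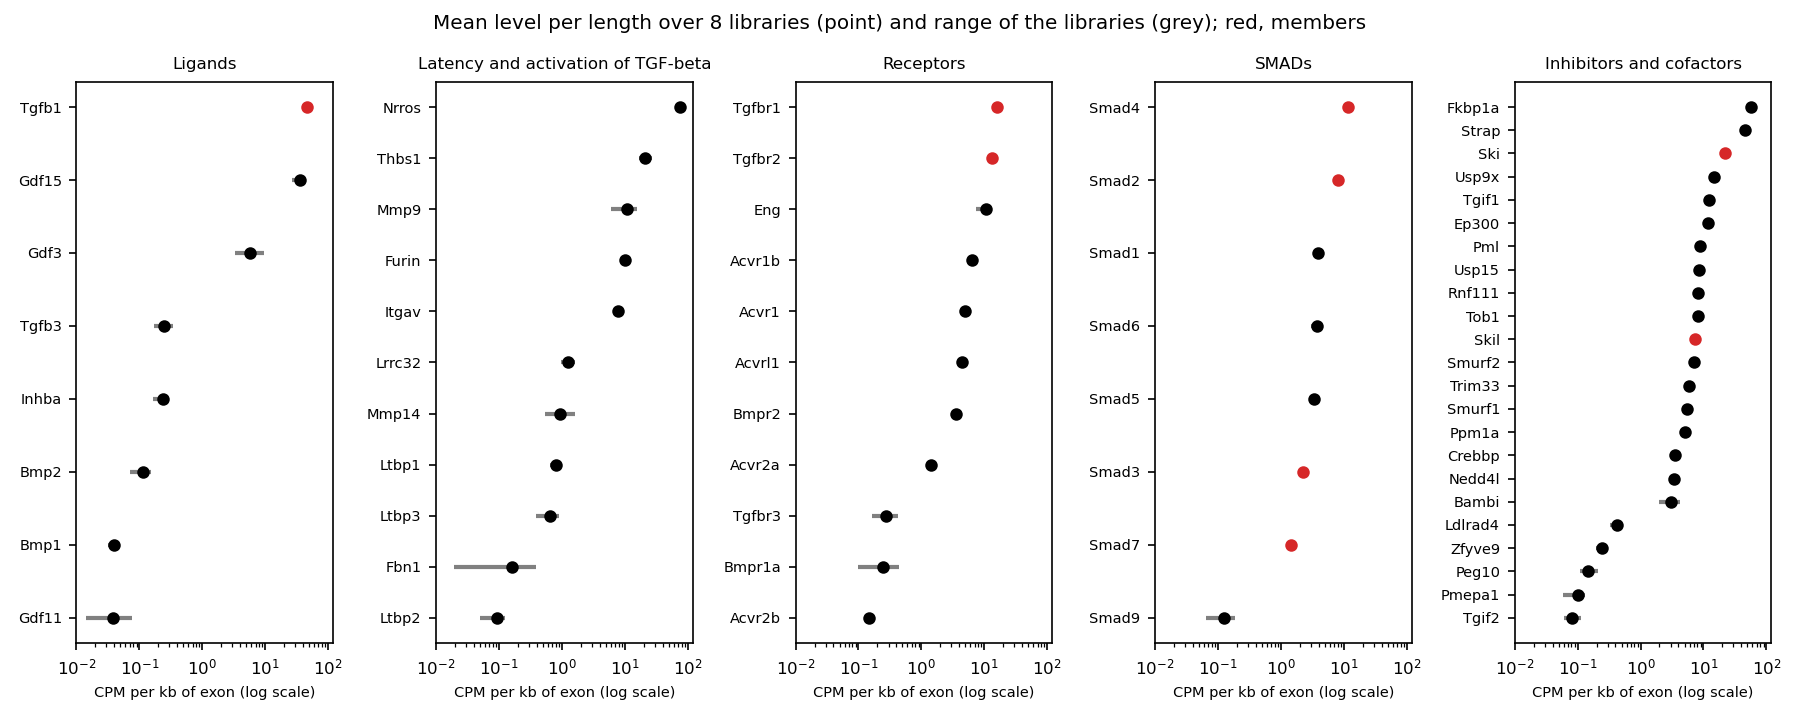
Mean level of each pathway gene over the 8 libraries, in CPM per kb of exon on a log axis, by list. Points are means, grey lines the range of the libraries and red points the members, and Tgfb1 (46.6), Tgfbr1 (15.8) and Smad4 (11.6 CPM per kb) stood highest in their lists.

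Tgfb1 was by far the most abundant of the 3 TGF-beta genes. Tgfb2 had between 2 and 9 counts in a library and did not pass the filter, and Tgfb3 had between 0.571 and 1.14 CPM. Of the genes that hold TGF-beta latent at the cell surface, Nrros, the latency partner used by myeloid cells, had 310 to 335 CPM (76.5 CPM per kb), whereas Lrrc32 (GARP), which serves regulatory T cells and platelets, had 4.50 to 7.52 CPM (1.24 CPM per kb). Itgb6 and Itgb8, which encode integrin beta chains able to release latent TGF-beta, reached at most 1 and 3 counts in a library. Genes of other beta chains were not examined. The alpha chain gene Itgav had 68.8 to 99.2 CPM and Thbs1, another activator, 102 to 162 CPM. These non-members were picked for their levels after the values were seen.

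**Figure D2:**
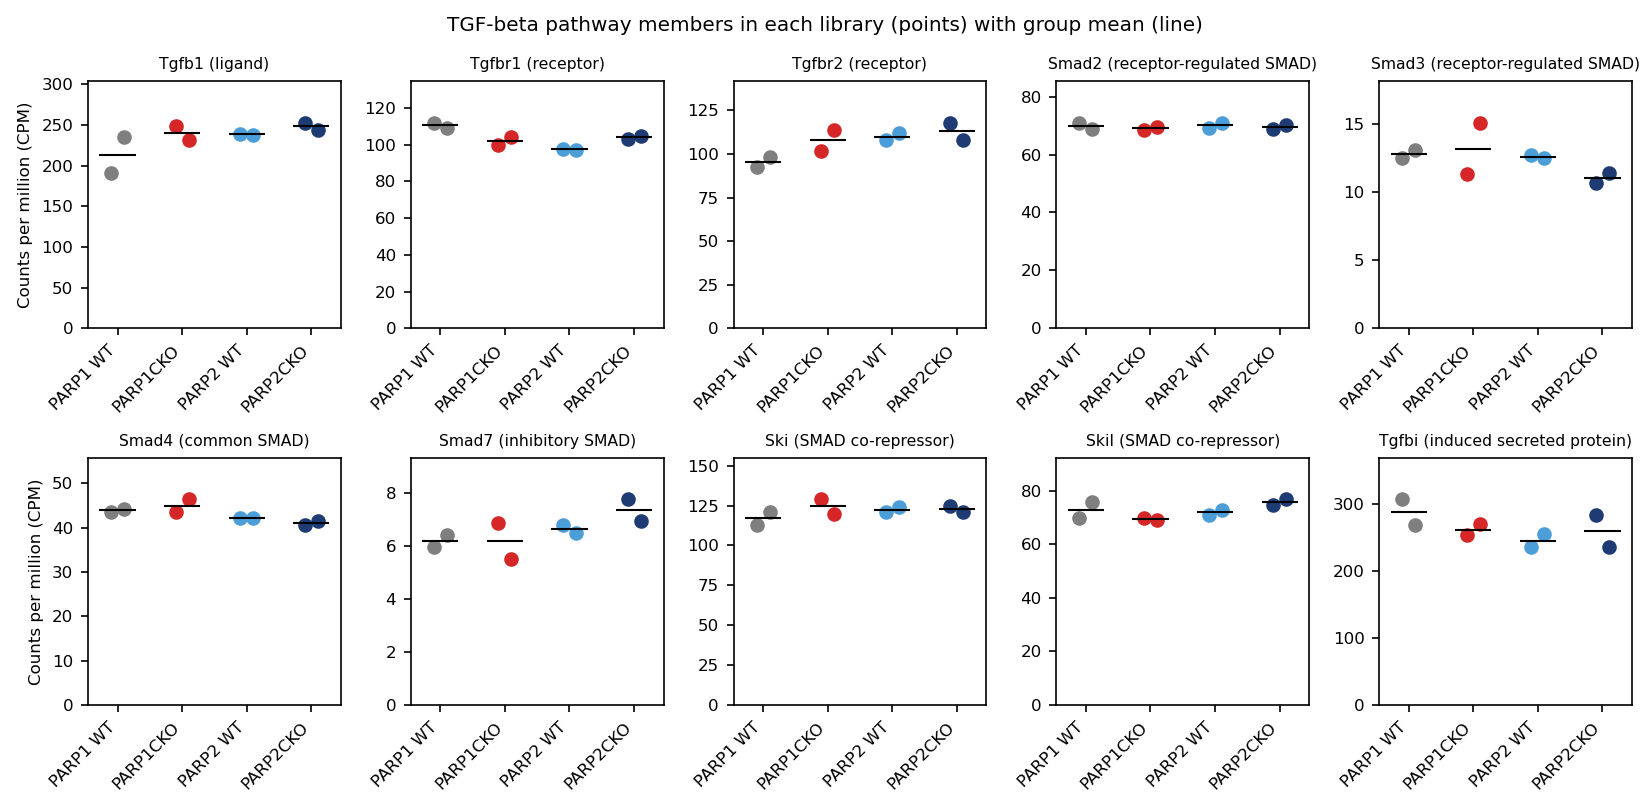
Level of each member in CPM, by group. Points are the single libraries and lines the group means; the Tgfbr1 points of PARP2 WT (97.6 and 97.2) lie below those of PARP1 WT (112 and 109), and the Smad2 points stay between 68.6 and 71.0 CPM.

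Deletion of PARP1 was examined in PARP1CKO against PARP1 WT IMCs. No member passed the threshold, and no estimate exceeded a difference of 12.9% with all libraries (Tgfb1, whose log2 fold change was 0.33 without PARP1 WT replicate 2). With a threshold of 0.05 on adjusted p, edgeR's quasi-likelihood test called 0 of 10 members, against 0.106% of the 13197 genes tested, and DESeq2 and edgeR's likelihood-ratio test also called 0. At an unadjusted p under 0.05 there were 2 members, where 11.3% of all genes lay. The median log2 fold change of the members was 0.02, beside 0.01 over all genes. In 3 members the groups did not overlap, a separation that 41.2% of all genes showed.

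The ligand gene Tgfb1 (chr7:25687002-25705077) gave 191 and 235 CPM for PARP1 WT against 249 and 232 CPM for PARP1CKO. The groups overlap, and PARP1 WT replicate 1 was the lowest of all 8 libraries. Its log2 fold change was 0.18 (standard error 0.0839, 95% interval -0.02 to 0.37, adjusted p = 0.463), and it was 0.03 without that library and 0.33 without PARP1 WT replicate 2 (adjusted p = 0.161). 

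Both receptor genes had unadjusted p-values under 0.05, in opposite directions. Tgfbr1 (chr4:47353222-47414931), the kinase that phosphorylates the SMADs, gave 112 and 109 CPM for PARP1 WT against 99.9 and 104 CPM for PARP1CKO. Both PARP1CKO libraries lay below both controls (log2 fold change -0.12, standard error 0.0394, 95% interval -0.21 to -0.03, unadjusted p = 0.0153, adjusted p = 0.331). Tgfbr2 (chr9:116084293-116175360), which binds the ligand, gave 92.5 and 98.4 CPM for PARP1 WT against 102 and 114 CPM for PARP1CKO. Both PARP1CKO libraries lay above both controls (log2 fold change 0.17, standard error 0.0663, 95% interval 0.02 to 0.32, unadjusted p = 0.0285, adjusted p = 0.386), and the value was 0.09 without PARP1CKO replicate 2 and 0.25 without PARP1CKO replicate 1. Neither passed the threshold over all genes. The ratio of Tgfbr1 to Tgfbr2 per kb was 1.52 and 1.38 for PARP1 WT against 1.23 and 1.14 for PARP1CKO.

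Smad2 and Smad4 were close to their controls, whereas the PARP1CKO libraries lay apart in Smad3. Smad2, on chromosome 18, gave 71.0 and 68.8 CPM for PARP1 WT against 68.6 and 69.4 CPM for PARP1CKO, a log2 fold change of -0.02 with a 95% interval from -0.11 to 0.07. Smad4, on the same chromosome, gave 43.5 and 44.2 CPM for PARP1 WT against 43.5 and 46.4 CPM for PARP1CKO (0.03, interval -0.07 to 0.14). For both genes the interval leaves room for a small change only. Smad3 (chr9:63646767-63757994) gave 12.5 and 13.1 CPM for PARP1 WT against 11.3 and 15.1 CPM for PARP1CKO, so the PARP1CKO libraries enclosed the controls. Its interval, from -0.24 to 0.31 around a log2 fold change of 0.04, was the widest of the SMADs that act with the receptors. The Smad3 value was -0.18 without PARP1CKO replicate 2 and 0.23 without PARP1CKO replicate 1.

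The inhibitors and Tgfbi likewise gave no call. Smad7, on chromosome 18, gave 5.94 and 6.39 CPM for PARP1 WT against 6.86 and 5.49 CPM for PARP1CKO, a log2 fold change of 0.00 with an interval from -0.28 to 0.29. Ski (chr4:155154075-155222592) gave 113 and 121 CPM for PARP1 WT against 129 and 120 CPM for PARP1CKO, with overlapping groups (log2 fold change 0.09, interval -0.03 to 0.20). Skil (chr3:31095058-31122577) gave 69.9 and 75.8 CPM for PARP1 WT against 69.6 and 68.9 CPM for PARP1CKO. Both PARP1CKO libraries of Skil lay below both controls, with the closest pair at 69.6 and 69.9 CPM (log2 fold change -0.07, interval -0.18 to 0.03, adjusted p = 0.574). Tgfbi (chr13:56609523-56639562) gave 308 and 270 CPM for PARP1 WT against 254 and 271 CPM for PARP1CKO, with overlapping groups and a log2 fold change of -0.14 (interval -0.35 to 0.07), which lay between -0.23 and -0.04 when each library was left out.

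Deletion of PARP2 was examined in PARP2CKO against PARP2 WT IMCs. Again no member passed the threshold, and the estimates lay between a 12.3% lower level (Smad3) and a 10.7% higher one (Smad7). The upper end rests on single libraries: on the log2 scale Smad7 was 0.15 with all libraries, 0.22 without PARP2CKO replicate 2 (where Tgfbi reached 0.21) and 0.06 without PARP2CKO replicate 1. edgeR's quasi-likelihood test called 0 of 10 members, against 0.053% of all genes, and DESeq2 and the likelihood-ratio test also called 0. At an unadjusted p under 0.05 there was 1 member, Tgfbr1, where 4.83% of all genes lay. The median log2 fold change of the members was 0.05, beside 0.00 over all genes. The groups did not overlap in 6 members, where 37.2% of all genes were so separated.

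Tgfb1 gave 239 and 238 CPM for PARP2 WT against 253 and 244 CPM for PARP2CKO, a log2 fold change of 0.06 (interval -0.13 to 0.25) without overlap of the groups. Tgfbr1 gave 97.6 and 97.2 CPM for PARP2 WT against 103 and 105 CPM for PARP2CKO, and both PARP2CKO libraries lay above both controls. The log2 fold change was 0.09 (standard error 0.0392, interval 0.00 to 0.18, unadjusted p = 0.0479, adjusted p = 0.954). Tgfbr2 gave 108 and 112 CPM for PARP2 WT against 118 and 108 CPM for PARP2CKO, with overlapping groups and a log2 fold change of 0.04. The receptor ratio per kb was 1.13 and 1.08 for PARP2 WT against 1.09 and 1.21 for PARP2CKO, and these ranges overlap.

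Of the 4 member SMADs, Smad3 had the largest estimated difference here. It gave 12.7 and 12.5 CPM for PARP2 WT against 10.7 and 11.4 CPM for PARP2CKO, and both PARP2CKO libraries lay below both controls. The log2 fold change of -0.19 had a standard error of 0.120 and an interval from -0.46 to 0.08 (adjusted p = 0.954). Smad2 gave 69.2 and 70.9 CPM for PARP2 WT against 68.7 and 70.1 CPM for PARP2CKO (log2 fold change -0.01, interval -0.10 to 0.07). The ratio of Smad2 to Smad3 per kb was 3.44 and 3.58 for PARP2 WT against 4.04 and 3.89 for PARP2CKO, the 2 highest ratios of the 8 libraries. Smad4 gave 42.2 and 42.1 CPM for PARP2 WT against 40.6 and 41.5 CPM for PARP2CKO, a log2 fold change of -0.04 (interval -0.14 to 0.07), and these groups did not overlap either.

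The inhibitory Smad7 gave 6.79 and 6.50 CPM for PARP2 WT against 7.76 and 6.94 CPM for PARP2CKO, a log2 fold change of 0.15 with an interval from -0.12 to 0.42. Both PARP2CKO libraries were the higher ones, and adjusted p was 0.956. The value was 0.06 without PARP2CKO replicate 1 and 0.22 without PARP2CKO replicate 2. Skil gave 71.0 and 72.8 CPM for PARP2 WT against 74.8 and 76.8 CPM for PARP2CKO (log2 fold change 0.08, interval -0.03 to 0.18, adjusted p = 0.954), again without overlap. Ski gave 121 and 124 CPM for PARP2 WT against 125 and 121 CPM for PARP2CKO, a log2 fold change of 0.01. Tgfbi gave 236 and 256 CPM for PARP2 WT against 284 and 236 CPM for PARP2CKO, and its overlapping groups gave a log2 fold change of 0.08 (interval -0.13 to 0.29), which was -0.06 without PARP2CKO replicate 1 and 0.21 without PARP2CKO replicate 2.

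**Figure D3:**
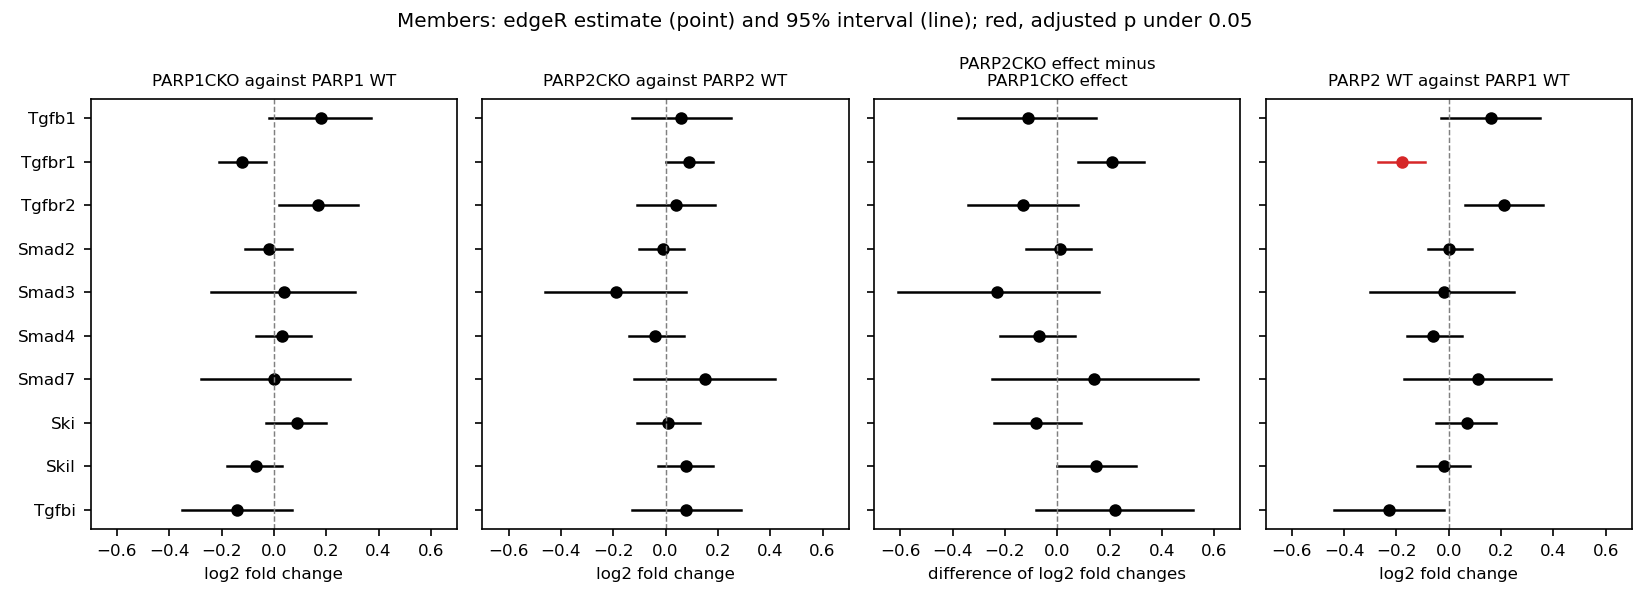
Estimated log2 fold change of each member (point) with its 95% interval (line) from edgeR's quasi-likelihood fit, for 4 comparisons. Red marks an adjusted p-value under 0.05, which only Tgfbr1 in PARP2 WT against PARP1 WT reached (-0.18).

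The effects of both deletions were then compared with each other by a test of their difference, in which each effect is taken against its own controls. The test called 0 of 10 members, against 0.0152% of all genes, as did DESeq2 and the likelihood-ratio test. At an unadjusted p under 0.05 there were 2 members, where 7.69% of all genes lay. Tgfbr1 had the smallest p-value of the members, with a difference of 0.21 on the log2 scale (standard error 0.0556, interval 0.08 to 0.33, unadjusted p = 0.00472, adjusted p = 0.493). The Tgfbr1 level was lower in both PARP1CKO libraries and higher in both PARP2CKO libraries than in the controls of the same line. However, the CKO groups lay close together, with means of 102 CPM in PARP1CKO and 104 CPM in PARP2CKO. The control groups lay further apart, at 110 CPM in PARP1 WT and 97.4 CPM in PARP2 WT. How far the difference between the effects rests on the controls was not tested. Skil differed by 0.15 (interval 0.00 to 0.30, unadjusted p = 0.0483, adjusted p = 0.643). The Skil value was 0.09 without PARP1 WT replicate 2 (unadjusted p = 0.161) and 0.21 without PARP1 WT replicate 1 (unadjusted p = 0.00872). For the other 8 members the interval of the difference included 0, and it was narrowest for Smad2, from -0.12 to 0.13.

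The genes that TGF-beta is known to induce were considered as a list of 20, Tgfbi, Skil and Smad7 among them, and all 20 passed the filter. Whether TGF-beta induces each of them in the cells used here was not measured. For Id1, Id2 and Id3 the direction of its effect can depend on the cell type. edgeR's quasi-likelihood test called 0 of them in PARP1CKO, in PARP2CKO and in the difference between their effects. DESeq2 called 1 in PARP1CKO (Spp1), the likelihood-ratio test called 0, and Klf10 was called in PARP1CKO when PARP1CKO replicate 1 was left out. In PARP1CKO their median log2 fold change was -0.07, and 4 had an unadjusted p under 0.05, all of them lower (5.15% of all genes were lower at this level). These were Spp1 (osteopontin), Klf10, Id2 and the receptor tyrosine kinase gene Axl. In PARP2CKO the median was 0.05, and 3 had an unadjusted p under 0.05, all of them higher (2.36% of all genes), namely Id3, Id1 and Ctgf. For the difference the median was 0.18, beside -0.01 over all genes, 5 of the 20 were lower and Cx3cr1 stood at 0.00, and 7 had an unadjusted p under 0.05, all of them higher on the PARP2CKO side (3.60% of all genes). These 7 were Id3, Id2, Spp1, Ctgf, Klf10, Skil and Cyr61. Spp1 and Id2 were highest in PARP1 WT (3140 and 2840 CPM, and 302 and 276 CPM), and Id3 in PARP2CKO (48.0 and 46.0 CPM). Ctgf and Cyr61 reached at most 1.41 and 0.453 CPM in a library. Klf10, Skil and Cyr61 had unadjusted p-values between 0.0480 and 0.0497. The list members share their libraries and are not independent of each other. The difference rests in part on 2 libraries: the median was 0.11 without PARP1 WT replicate 2 and 0.12 without PARP2CKO replicate 1, with 3 genes at an unadjusted p under 0.05 in each case. Without any other single library the median lay between 0.17 and 0.21, and between 4 and 5 genes had an unadjusted p under 0.05.

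Of these genes Id3, an inhibitor of helix-loop-helix factors, had 38.7 and 43.5 CPM for PARP1 WT, 41.2 and 37.2 for PARP1CKO, 38.8 and 40.4 for PARP2 WT, and 48.0 and 46.0 for PARP2CKO. Its log2 fold change in PARP2CKO was 0.25 (standard error 0.0679, adjusted p = 0.801), and the difference between the effects was 0.32 (adjusted p = 0.573). Spp1, by far the most abundant of the list, gave 3140 and 2840 CPM for PARP1 WT against 2460 and 2660 CPM for PARP1CKO (log2 fold change -0.22, standard error 0.0680, unadjusted p = 0.00984, adjusted p = 0.300). The fibroblast and stroma markers, a cell type in which Ctgf is abundant, summed to 2.17 and 3.63 CPM (lowest and highest library) for PARP1 WT, 1.68 and 2.52 for PARP1CKO, 1.86 and 4.01 for PARP2 WT, and 2.32 and 2.92 for PARP2CKO. Of the 5 stroma markers, 3 stayed under 1 CPM in every library. All 5 were lower in PARP1CKO (median -0.44), 3 of 5 were lower in PARP2CKO (median -0.18) and 4 of 5 were higher in the difference (median 0.28). None had an unadjusted p under 0.05, and their part in the values of the induced genes was not tested. Values of other marker lists follow, and their part was not tested either. In the difference 7 of 8 neutrophil markers were lower (median -0.23, 3 with an unadjusted p under 0.05), and the 3 erythroid markers tested had a median of -1.02, with sums of 2.22 to 2.71 CPM in PARP1 WT and 4.02 to 4.76 CPM in PARP1CKO. All 6 monocyte markers were lower in PARP1CKO (median -0.16), with 1 at an unadjusted p under 0.05, and 5 of 6 were lower in PARP2CKO (median -0.10, 2 at this level). All 5 basophil and mast cell markers were lower in PARP2CKO (median -0.50) and in the difference (median -0.23), with 1 at an unadjusted p under 0.05 in each. All 4 osteoclast markers tested were higher in PARP2CKO (median 0.30), and 3 of 4 were higher in the difference (median 0.18, 1 at this level). Of the macrophage markers 6 of 8 were higher in PARP1CKO (median 0.06, 1 at this level) and 4 of 8 in PARP2CKO (median 0.03, 2 at this level, both higher), with sums of 4730 to 5010 CPM in PARP2 WT and 5000 to 5170 CPM in PARP2CKO. All 6 B cell markers were higher in PARP1CKO (median 0.27). In the difference 5 of 6 B cell markers (median -0.29) and 4 of 5 megakaryocyte and platelet markers (median -0.20) were lower. None of these markers was called.

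**Figure D4:**
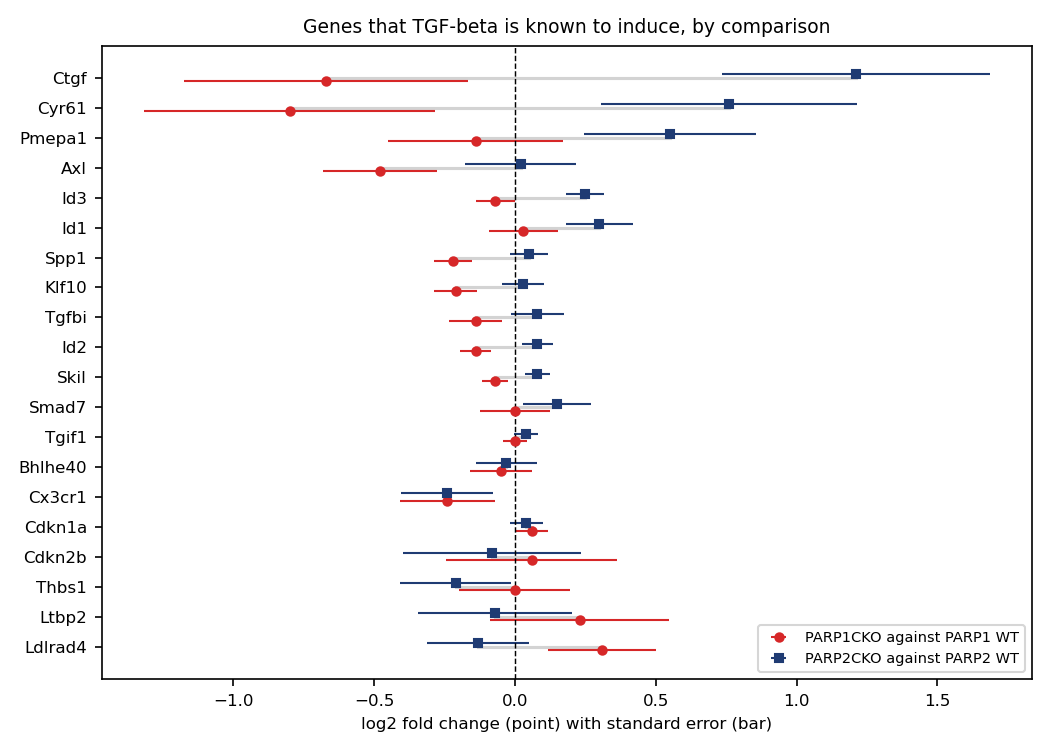
Log2 fold change of the 20 genes that TGF-beta is known to induce, in PARP1CKO against PARP1 WT (red circles) and PARP2CKO against PARP2 WT (blue squares), with standard errors. None passed the threshold in the quasi-likelihood test; 5 of the 20 blue squares lie to the left of their red circle, both points of Cx3cr1 coincide at -0.24, and the other squares lie to the right. The median difference over the list was 0.18.

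Of the 75 further pathway genes in the lists by role, 64 passed the filter. In PARP1CKO 38 of these were higher and 26 lower, with a median of 0.03, and in PARP2CKO 35 were higher and 29 lower, with a median of 0.02. At an unadjusted p under 0.05 there were 12 of the 64 in PARP1CKO, 5 in PARP2CKO and 12 in the difference, where 11.3%, 4.83% and 7.69% of all genes lay. The quasi-likelihood test called 0 in each. DESeq2 called Spp1 in PARP1CKO and Mmp9 in PARP2CKO, and the likelihood-ratio test called Pml in PARP1CKO and Mmp9 in PARP2CKO and in the difference. Without a filter on low counts the quasi-likelihood test also called Mmp9 in PARP2CKO and in the difference. The smallest p-values in PARP1CKO were those of Pml, whose protein takes part in TGF-beta signalling through SMAD2 and SMAD3 (log2 fold change 0.24, standard error 0.0530, adjusted p = 0.176), of the ligand Gdf15 (0.29, adjusted p = 0.287) and of Spp1. In PARP2CKO they were those of Mmp9, a protease able to activate latent TGF-beta (-0.43, standard error 0.0971, adjusted p = 0.557), of Id3 and of Ctgf (1.21, standard error 0.476, adjusted p = 0.954). Ctgf gave 0.605 and 0.250 CPM for PARP2 WT against 1.41 and 0.559 CPM for PARP2CKO, so the groups overlap and only PARP2CKO replicate 1 lay above both controls. Mmp9 gave 29.2 and 32.5 CPM for PARP2 WT against 24.4 and 21.5 CPM for PARP2CKO, and it also had the smallest p-value of the pathway genes in the difference (-0.54, adjusted p = 0.414). The neutrophil markers, a cell type rich in Mmp9, summed to between 3040 and 3270 CPM in PARP2 WT and to between 2660 and 3020 CPM in PARP2CKO, with 7 of 8 lower and none called, and their part in the Mmp9 value was not tested.

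The control groups of the lines were also compared, PARP2 WT against PARP1 WT. These libraries are the controls of the comparisons above, so their values enter both, and the line, any batch and the litters cannot be told apart here. Tgfbr1 was called, with 112 and 109 CPM for PARP1 WT against 97.6 and 97.2 CPM for PARP2 WT (110 ± 2.46 against 97.4 ± 0.301 CPM, SD, n = 2). Its level was 11.8% lower in PARP2 WT (log2 fold change -0.18, standard error 0.0393, interval -0.27 to -0.09, adjusted p = 0.0456). It was 1 of 10 members called, beside 3.16% of all genes (1.24% lower), and 3 members had an unadjusted p under 0.05, where 18.9% of all genes lay. The call was at the edge of the threshold: in 15 alternatives adjusted p lay between 0.0150 and 0.223, under 0.05 in 8 of them, and with only the 4 WT libraries it was 0.0672. It was also lost without any single WT library or any single PARP2CKO library (adjusted p between 0.0676 and 0.223), the latter entering through the shared estimate of spread. Without PARP1 WT replicate 2, Tgfb1 was called instead (log2 fold change 0.32, adjusted p = 0.0407).

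The other members were not called between the lines. Tgfbr2 was on the opposite side to Tgfbr1, with 92.5 and 98.4 CPM for PARP1 WT against 108 and 112 CPM for PARP2 WT (log2 fold change 0.21, interval 0.06 to 0.36, unadjusted p = 0.0125, adjusted p = 0.143). The receptor ratio per kb, 1.52 and 1.38 in PARP1 WT, was thus above all other libraries, which ranged from 1.08 to 1.23. Tgfbi was lower in PARP2 WT without passing (-0.23, interval -0.44 to -0.02, adjusted p = 0.229), at -0.13 without PARP1 WT replicate 1 and -0.32 without PARP1 WT replicate 2. Across the lines 6 of 10 members had groups that did not overlap, where 51.9% of all genes were so separated, and the median of the members was -0.01, beside 0.00 over all genes. Smad2 differed least, with a log2 fold change of 0.00 and an interval from -0.08 to 0.09.

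Of the 64 further pathway genes, 8 were called between the control groups (5 higher and 3 lower in PARP2 WT), a comparison that called 3.16% of all genes. The activation and latency genes held 4 of them. Fbn1 (fibrillin-1, the microfibril protein to which latent TGF-beta complexes attach) gave 0.439 and 0.302 CPM for PARP1 WT against 2.61 and 3.34 CPM for PARP2 WT (log2 fold change 3.02, standard error 0.413, adjusted p = 0.00737). Ltbp3, a latent TGF-beta binding protein gene, was higher in PARP2 WT, with 6.86 and 8.26 CPM against 3.57 and 3.67 CPM (1.06, standard error 0.126, adjusted p = 0.00448) and stayed under 0.05 in all 15 alternatives. Mmp14 was higher (0.91, adjusted p = 0.0338) and Mmp9 lower (-0.63, adjusted p = 0.0112). The co-receptor gene Tgfbr3 (betaglycan) was higher (1.10, adjusted p = 0.0255), the BMP receptor gene Bmpr1a was lower (-1.46, adjusted p = 0.0105), Gdf15 was higher (0.39, adjusted p = 0.0373) and Id2 was lower (-0.28, adjusted p = 0.0290). Besides Ltbp3, these calls held in 8 (Gdf15) to 13 (Fbn1 and Bmpr1a) of the 15 alternatives, and each was lost without at least 1 WT library. With members included, DESeq2 and the likelihood-ratio test each called 14 pathway genes, and the fit without a filter on low counts called 15. Bambi, Nedd4l and Bhlhe40 were among the added genes in each. The main fit called 9 pathway genes, members included. Of these 9, 2 kept the call without PARP1 WT replicate 1 (Bmpr1a and Ltbp3), 2 without PARP2 WT replicate 1 (Ltbp3 and Fbn1) and 5 without PARP2 WT replicate 2 (Bmpr1a, Ltbp3, Fbn1, Mmp9 and Tgfbr3). Without PARP1 WT replicate 2, only 3 of the 9 kept it (Id2, Ltbp3 and Gdf15), and Tgfb1, Bambi and Furin were called in addition. Markers were called in the same comparison too. All 6 B cell markers were called lower, with sums of 29.4 to 34.3 CPM in PARP1 WT and 9.30 to 11.3 CPM in PARP2 WT. The osteoclast markers summed to 19.1 to 20.8 and 31.3 to 47.0 CPM (1 of 4 called, higher). The 5 fibroblast and stroma markers had a median of -0.35. At an unadjusted p under 0.05 there were 2 of them (1 higher and 1 lower), and 0 were called. The 4 granulocyte progenitor markers were all higher in PARP2 WT (median 0.38), 2 of them called, with sums of 265 to 302 CPM in PARP1 WT and 347 to 390 CPM in PARP2 WT. Of the macrophage markers 7 of 8 were higher (median 0.16, 1 called), with sums of 4380 to 4630 CPM in PARP1 WT and 4730 to 5010 CPM in PARP2 WT. Of the 6 monocyte markers 4 had an unadjusted p under 0.05 (3 higher and 1 lower) and 1 was called higher. Of the 8 neutrophil markers 3 had an unadjusted p under 0.05 (1 higher and 2 lower) and 1 was called lower. All 3 erythroid markers tested were lower (median -1.31, 1 called), with sums of 2.22 to 2.71 CPM in PARP1 WT and 1.06 to 1.19 CPM in PARP2 WT. The basophil and mast cell markers summed to 18.0 to 18.4 CPM in PARP1 WT and 6.82 to 10.6 CPM in PARP2 WT, and the part of these cells in the Tgfbr1 and pathway values was not tested.

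The members differed in how steady they were. The highest library exceeded the lowest by 1.04-fold for Smad2, a spread that only 0.129% of the genes tested did not exceed. The corresponding values were 1.11 for Skil, 1.14 for both Ski and Smad4 and 1.15 for Tgfbr1, each below the median gene. Tgfbr2 (1.28), Tgfbi (1.31), Tgfb1 (1.33), Smad3 (1.40) and Smad7 (1.41) spread more than the median gene, and the last pair also had the fewest counts. Platelets carry much TGF-beta1, and the summed megakaryocyte and platelet markers lay between 272 and 381 CPM, with none of 5 called in any comparison of a deletion. Their part in the Tgfb1 level was not tested.

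Across the 8 libraries, which share group and depth differences, Smad3 and Smad7 had the lowest Pearson r of log2 CPM among the member pairs (-0.90), followed by Smad4 and Smad7 (-0.89), and Tgfb1 and Ski the highest (0.90). Over the same libraries the genes most like a member were Sf3b5 (r = 0.991) and Csf2ra (0.983) for Tgfb1, Lsm8 (0.950) and Ms4a7 (0.949) for Tgfbr1, and Atf6b and Tmem208 (both 0.965) for Tgfbr2. For the SMADs they were 2310040G24Rik (0.956) and Snrnp27 (0.954) for Smad2, Akap5 (0.966) and Slfn3 (0.964) for Smad3, Tbc1d10c (0.983) and Usp32 (0.978) for Smad4, and Mical2 (0.988) and Inf2 (0.976) for Smad7. Ski was most like Dennd4b (0.973) and Tsg101 (0.964), Skil most like Eed (0.966) and Brox (0.952), and Tgfbi most like Dsp (0.952) and Brap (0.926). Each is a description over 8 points, picked as the highest of 13197 genes.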

How the data were processed

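The measurements are total RNA sequencing of IMCs in 8 libraries, with 2 biological duplicates per group by the labels. The raw counts per gene were deposited by the authors, who trimmed single-end reads, mapped them to mm10 with TopHat 2.0.12, marked duplicates with Picard 1.127 and counted with featureCounts. The annotation, the strand setting and whether marked reads were removed are not given in the sources used here, and an antisense or overlapping gene could share reads. No member shares exon bases with another gene in GENCODE M21, from which positions and exon lengths were taken.

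Tests used R 4.3.3 with edgeR 4.0.16 and limma 3.58.1. Genes passing filterByExpr (13197) were fitted with TMM factors, a mean per group over all 8 libraries and its quasi-likelihood test. Adjusted p-values are Benjamini-Hochberg over all genes, with a threshold of 0.05. CPM are counts scaled to 1000000 per library after TMM. Intervals cover 95%. An exact permutation test of 2 against 2 libraries cannot go below 0.333 and was not used. Alternatives were DESeq2 1.42.0, its size factors, library size only, the likelihood-ratio test, the 4 libraries of a comparison, no filter, 1 CPM in 2 libraries, a replicate block, a crossed block (added after seeing the data) and leaving out each library. The named genes are the members, Parp1, Parp2, the called genes of the pathway lists, otherwise the 3 with the smallest p in a comparison, and the 2 genes most like each member by Pearson r of log2 CPM (prior count 2). Other named genes of the lists were chosen after their values were seen. Members and lists were chosen with earlier results of these data known. Figures used matplotlib 3.10.9. A marker gene absent under its symbol (Ly6g, Trac) was not analysed here. A further gene of the lists is not reported here and entered no list count.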

Additional observations from a re-analysis of the deposited data

How the results depend on the processing

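Main counts of genes called were 14 in PARP1CKO, 7 in PARP2CKO, 2 in the difference and 417 between the WT groups. They were 86, 27, 45 and 551 with DESeq2, 146, 39, 72 and 910 with the likelihood-ratio test, and 101, 26, 61 and 872 without a filter on low counts. Leaving out each library gave 1 to 33, 4 to 19, 1 to 16 and 85 to 568. Of the members, 0 were called in PARP1CKO, PARP2CKO and their difference under every alternative run. Between the WT groups 1 was called, 0 with the 4 libraries of the comparison, and 0 to 1 when each library was left out. The cause was not tested.

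Same-numbered libraries are not said to share a litter, and their replicate differences correlated at -0.133 in the PARP1 line and 0.147 in the PARP2 line. A replicate block gave 17 genes called in PARP1CKO, 11 in PARP2CKO and 1 in the difference, and called 0 members. Crossing the numbers of the PARP1 line gave 46, 15 and 42.

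Of 40 member values, 14 changed sign under some alternative, all of them with a main log2 fold change of at most 0.14 in size. Without a composition factor Smad7 was 0.00 in PARP1CKO, Ski -0.02 in PARP2CKO, and Smad2 -0.01 in the difference and -0.04 between the WT groups. Smad7 in PARP1CKO was 0.00 with the 4 libraries of the comparison and -0.01 with the replicate block. With each library left out, PARP1CKO gave -0.05 to 0.00 for Smad2, -0.17 to 0.15 for Smad7, -0.18 to 0.23 for Smad3 and -0.01 to 0.08 for Smad4. PARP2CKO gave -0.01 to 0.03 for Ski, -0.03 to 0.01 for Smad2, -0.03 to 0.10 for Tgfbr2 and -0.06 to 0.21 for Tgfbi. The difference gave -0.27 to 0.03 for Tgfb1, -0.01 to 0.03 for Smad2 and 0.00 to 0.32 for Smad7. The WT groups gave -0.02 to 0.03 for Smad2, -0.05 to 0.01 for Smad3 and -0.08 to 0.04 for Skil. Besides the values given beside the results, these member values kept their sign and moved by over 1.5 times with 1 library left out. They ranged from 0.03 to 0.14 (Ski) and -0.13 to -0.02 (Skil) in PARP1CKO, and from 0.03 to 0.09 (Tgfb1) and -0.05 to -0.02 (Smad4) in PARP2CKO. In the difference they ranged from -0.13 to -0.02 (Ski), -0.42 to -0.01 (Smad3), -0.12 to -0.02 (Smad4), 0.08 to 0.34 (Tgfbi) and -0.21 to -0.05 (Tgfbr2). Between the WT groups they ranged from 0.01 to 0.12 (Ski), 0.06 to 0.16 (Smad7) and 0.02 to 0.32 (Tgfb1). With 2 libraries per group, Smad3 and Smad7, which have the fewest counts, have the widest intervals.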
